A study of Saccharomyces cerevisiae with 8 samples.

Results

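The genes described here are those of autophagy and vacuolar proteolysis in the budding yeast Saccharomyces cerevisiae, 41 genes of the 5449 with a probe set on the array. They are the 34 genes whose symbol in the array's annotation is ATG followed by a number, and 7 named genes of the vacuole, namely the hydrolase genes PEP4, PRB1, PRC1, CPS1, LAP4 and AMS1 and the GTPase gene YPT7. LAP4 is listed there as APE1. The choice rests on names and not on measured values, though it was made with earlier results of these data known. Total RNA came from 8 independent cultures of 1 strain, DBY7286, each hybridised to its own Affymetrix yeast array. In 4 cultures the medium held 10 µM ferrous iron (low iron) and in the other 4 it held 300 µM (high iron). All cultures of both conditions also contained the ferrous iron chelator Ferrozine at 1 mM, with 1 µM copper and 25 mM MES at pH 6.1. They were grown in minimal medium with shaking at 30 °C to mid-log phase (A600 of 0.5), which took some 18 h, and the labels name no starvation for nitrogen or carbon. The question of the study was how yeast metabolism responds to scarce iron.

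Autophagy is the route by which a cell wraps part of its cytoplasm in a double membrane, the autophagosome, and delivers it to the vacuole, the yeast counterpart of the lysosome, for breakdown. The Atg1 kinase complex starts the process, a phosphatidylinositol kinase marks the growing membrane, Atg9 vesicles and the lipid transfer protein Atg2 supply lipid, and the ubiquitin-like proteins Atg8 and Atg12 are conjugated by their own enzymes to build the membrane. Receptors tie chosen cargo such as mitochondria, peroxisomes or endoplasmic reticulum to Atg8, and in growing cells the same machinery carries the hydrolases Lap4 and Ams1 to the vacuole by the cytoplasm-to-vacuole targeting route. Inside the vacuole, proteases that mature in a cascade led by Pep4 and Prb1 degrade the cargo, and amino acids leave through transporters such as Atg22.

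The arrays shared a common scale, with a mean signal of 500.2 on each after trimming 2% at each end. The brightest probe set of an array read 6597 to 7706, and the background, taken from probe sets with fission yeast gene identifiers, was 5.40 to 8.06. Signals are MAS5 intensities on a linear scale, and levels of different genes are not compared, since each probe set has its own response. As a check of the labels, all 9 genes of the iron regulon chosen for this purpose were higher in low iron on every array, among them FRE2, a ferric reductase, at 3523 ± 378 against 120.4 ± 8.91 (SD, n = 4). Each of the 41 genes had 1 probe set, and all of them passed the filter on dim genes and lay above background on every array. In RNA from whole cultures a large change in some cells and a small change in all cells cannot be told apart.

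In low iron 11 of the 41 genes were higher and 4 were lower (limma, adjusted p under 0.05 over all 5412 genes tested), while 26 did not pass. The 15 called genes are 36.6% of the set, where 39.4% of all genes were called, so the set as a whole changed about as often as the rest of the genome. By direction, 16.8% of all genes were called higher and 22.7% lower in low iron. The changes were small. Only ATG41 differed at least 2-fold, 1 gene or 2.44% of the set beside 4.12% of all genes called at that size, and 10 of the 15 called genes changed by less than 0.5 on the log2 scale. The median log2 change of the set was 0.10, against -0.02 over all genes, with 27 values above 0 and 14 below. Values of the 2 conditions did not overlap in 11 genes, 8 with low iron above and 3 with low iron below. Over all genes 38.5% did not overlap, 16.8% with low iron above and 21.8% with low iron below. Under quantile normalization the split was 18 higher and 3 lower, and under median centring it was 14 and 3. Of all calls in the genome 42.5% were higher in low iron, and this share also moved with the scaling, to 52% under quantile normalization and 51.5% under median centring.

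**Figure D1:**
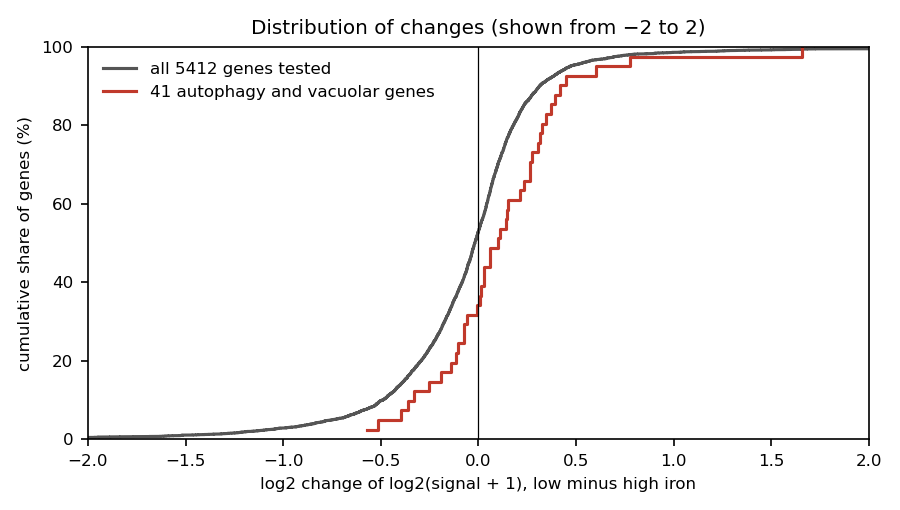
Cumulative share of genes (%, vertical axis) against the log2 change between low and high iron (horizontal axis, shown from -2 to 2) for the 5412 genes tested (grey) and the 41 autophagy and vacuolar genes (red). The red line runs to the right of the grey one over most of the range, with medians of 0.10 and -0.02, and ends at 1.66 with ATG41.

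**Figure D2:**
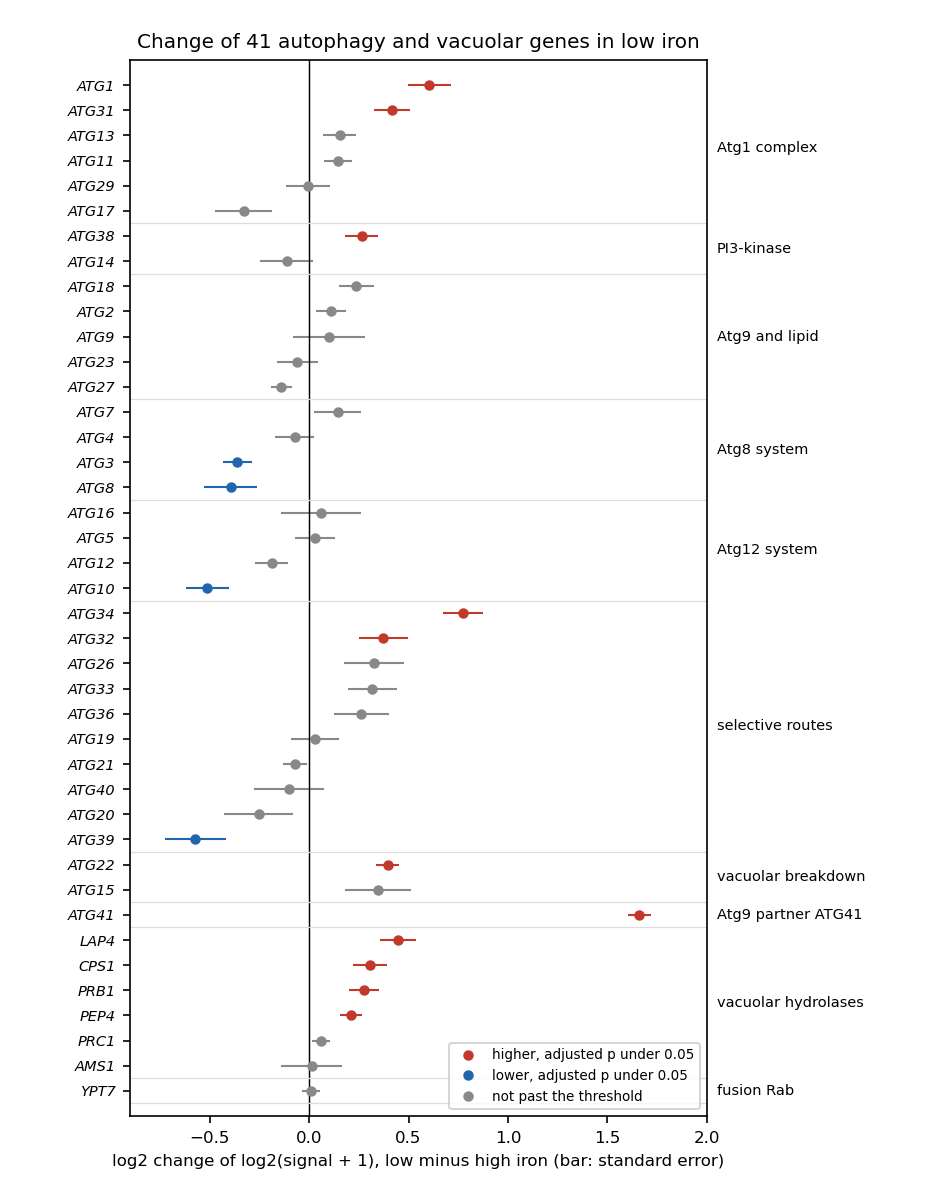
Log2 change of each of the 41 genes between low and high iron (points, with the standard error as a bar), grouped by role. Red points mark the 11 genes that were higher and blue points the 4 that were lower in low iron at an adjusted p under 0.05, and grey points the 26 that did not pass.

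ATG41 showed the one large change. It encodes a partner of Atg9 that is needed for the full rate of autophagosome formation, and the gene (YPL250C) is also known as ICY2. On low-iron arrays 1 to 4 its signal was 3818, 4025, 3748 and 3722, and on high-iron arrays 1 to 4 it was 1252, 1249, 1258 and 1088. The low-iron arrays lay close together and far above all high-iron arrays. The means were 3828 ± 137 and 1212 ± 82.5 (SD, n = 4). The rise was 3.16-fold (log2 change 1.66 ± 0.0579, SE; limma adjusted p = 2.0e-08). Ordered by absolute log2 change, ATG41 was number 67 of the 5412 genes, and its value stayed between 1.61 and 1.70 under all 20 alternative settings. ATG9, the gene of the membrane protein with which Atg41 interacts, did not pass, with signals of 159, 151, 104 and 88.7 in low iron and 108, 128, 119 and 101 in high iron (log2 change 0.10, adjusted p = 0.683). The 4 low-iron values of ATG9 spread to both sides of the high-iron ones.

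Among the 6 genes of the Atg1 kinase complex and its scaffolds, 2 rose and none fell in limma (33.3% called, beside 39.4% of all genes). At an unadjusted p under 0.05, 2 were higher and 1 was lower. ATG1, the protein kinase that starts autophagosome formation, read 249, 247, 193 and 206 in low iron and 145, 168, 134 and 139.6 in high iron. Every low-iron array was above every high-iron array, and the rise was 1.52-fold (log2 change 0.60 ± 0.108, SE; limma adjusted p = 0.00157). ATG31, which joins Atg17 to Atg29 in the scaffold of starvation-induced autophagy, averaged 367 ± 42.9 in low and 273 ± 17.2 in high iron (SD, n = 4; limma adjusted p = 0.00482), again without overlap, and its log2 change of 0.42 came to 0.27 without low-iron arrays 1 and 2. The other scaffold subunits did not pass. ATG17 read 75.8, 66.7, 52.0 and 62.7 in low iron and 91.9, 90.3, 75.2 and 66.8 in high iron, a log2 change of -0.33 (adjusted p = 0.0889) that passed, at -0.41, when low-iron array 1 was left out. ATG29 read 38.7 to 48.2 and 39.6 to 46.4 (log2 change -0.0044, adjusted p = 0.978). ATG13, the regulatory subunit that target of rapamycin complex 1 phosphorylates, read 341 to 430.0 in low iron and 326 to 364 in high iron (log2 change 0.15, adjusted p = 0.17). The range of ATG11, the scaffold of selective autophagy, was 369 to 417 against 330.2 to 369 (0.15, adjusted p = 0.117), so that the lowest low-iron culture met the highest high-iron one.

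The kinase that makes phosphatidylinositol 3-phosphate on the forming autophagosome has 2 autophagy-specific subunits on the list. ATG38, which holds the complex together, read 354, 330.4, 325 and 277 in low iron and 285, 256, 257 and 269 in high iron, and rose 1.20-fold (limma adjusted p = 0.0295). The conditions overlapped on 1 low-iron array, number 4. This call ended on leaving out low-iron array 1, 2 or 3 or high-iron array 2, 3 or 4 (adjusted p 0.0521 to 0.0784), and without low-iron arrays 1 and 2 together the change came to 0.17. ATG14, which directs the complex to autophagy, read 62.2 to 89.4 in low iron and 68.6 to 88.6 in high iron, nearly the same range (log2 change -0.11, adjusted p = 0.535). Of the 4 subunits that the kinase shares with or uses in other routes, VPS30, also called ATG6, rose by 0.30 from 204 ± 6.61 to 252 ± 18.4 and VPS38, the endosomal subunit, by 0.38 (limma adjusted p = 0.00816 and 0.00286). The catalytic subunit gene VPS34 and its partner VPS15 had log2 changes of 0.18 and 0.20 and did not pass (adjusted p = 0.0576 and 0.163).

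None of the 5 genes for Atg9 vesicles and lipid supply passed in limma, where 39.4% of all genes did. Of the 5, 2 had an unadjusted p under 0.05. ATG18, which binds the marked membrane and works with the lipid transfer protein Atg2, read 394, 393, 311 and 332 in low iron and 313, 285, 299.5 and 310.4 in high iron. Low-iron array 3 lay among the high-iron values, and the log2 change of 0.24 just missed the threshold (adjusted p = 0.0565), which it crossed in 5 of 20 alternatives, among them leaving out low-iron array 3 (0.30) or 4 (0.27). ATG27, a membrane protein that helps Atg9 to cycle, ran the other way at 1796, 1686, 1754 and 1791 against 2019, 1806, 1992 and 1927. Its conditions did not overlap, but the change of -0.14 did not pass (adjusted p = 0.0517). It passed in 4 alternatives, among them leaving out high-iron array 2 (-0.17). ATG2 itself read 268 to 303 in low iron and 243 to 284 in high iron (0.11, adjusted p = 0.263). ATG23, a peripheral membrane protein of Atg9 traffic, read 169 to 226 and 182 to 225 (-0.06, adjusted p = 0.675).

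The 2 ubiquitin-like conjugation systems held 3 of the 4 genes that fell. These were 2 of the 4 genes of the Atg8 system and 1 of the 4 of the Atg12 system, beside 22.7% of all genes. ATG10, the enzyme that passes Atg12 to Atg5, read 90.8, 103, 121 and 127 in low iron and 155, 154, 159.5 and 157 in high iron. The high-iron values lay within a few units of each other, and all low-iron values were below them. ATG10 fell 1.43-fold (log2 change -0.51 ± 0.106, SE; limma adjusted p = 0.00366), and by 0.33 on the log2 scale without low-iron arrays 1 and 2, where the call held.

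ATG3, the enzyme that passes Atg8 to the lipid phosphatidylethanolamine, read 257, 252, 261 and 236 against 297, 311, 332 and 354, again without overlap, and fell 1.28-fold (limma adjusted p = 0.00322). ATG8 itself, the protein whose lipid form coats the autophagosome and binds the receptors, read 369, 284, 263 and 249 in low iron and 339, 463, 378 and 347 in high iron. Here the highest low-iron array lay among the high-iron values. The fall of 1.31-fold (log2 change -0.39 ± 0.135, SE; limma adjusted p = 0.0404) was close to the threshold and its call ended in 9 of 20 alternatives. Among those were leaving out low-iron array 2, 3 or 4 or high-iron array 2, 3 or 4, with log2 changes of -0.30 to -0.44 and adjusted p of 0.0536 to 0.111, and it came to -0.23 without low-iron arrays 3 and 4 together.

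The remaining 5 genes of the 2 systems did not pass. ATG7, the activating enzyme of both Atg8 and Atg12, read 271 to 404 in low iron and 261 to 321 in high iron (0.14, adjusted p = 0.361). ATG4, the protease that trims Atg8, read 117 to 141 and 119 to 152 (-0.07, adjusted p = 0.583). The other 3 were ATG12, ATG5 and ATG16, whose products together form the ligase for Atg8. ATG12 read 269, 301, 349 and 304 in low iron and 356, 358, 328 and 349 in high iron (-0.19, adjusted p = 0.0941), and passed at -0.25 without low-iron array 3. ATG5 ranged over 563 to 774 in low iron, on both sides of the high-iron range of 636 to 671 (0.03, adjusted p = 0.835). ATG16 was dim, at 6.75 to 13.0 in low iron and 9.02 to 10.6 in high iron, close to the background of the arrays, and its change was 0.06 ± 0.200 (SE).

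**Figure D3:**
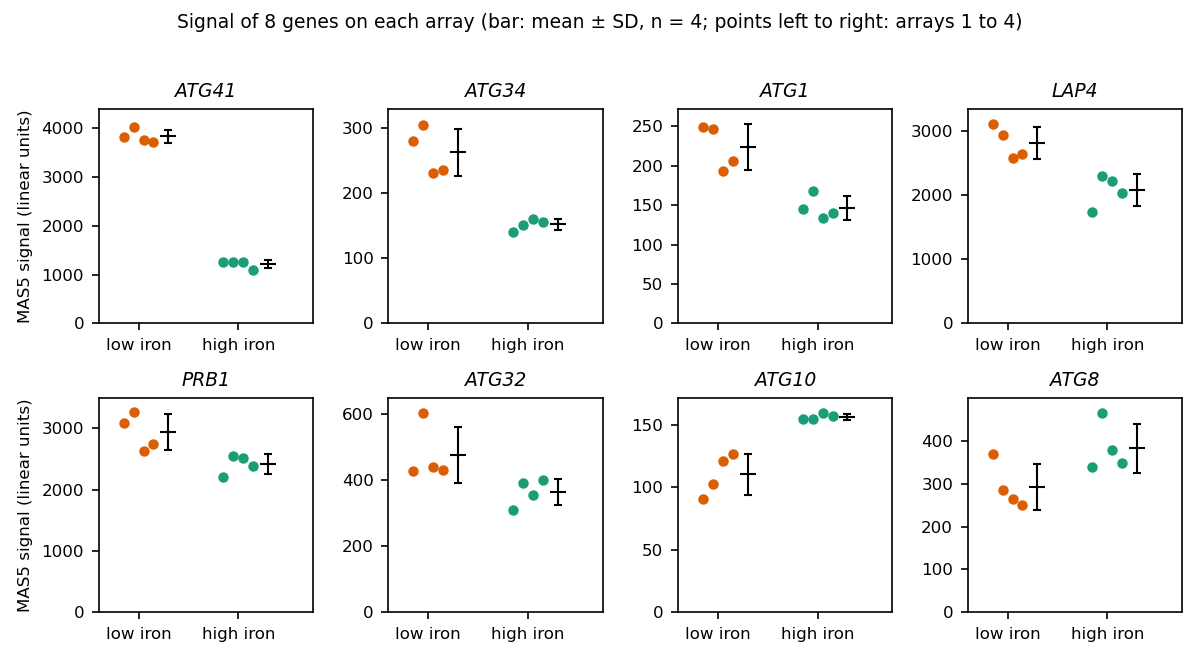
MAS5 signal (linear units, vertical axis from 0) of 8 genes on each of the 4 low-iron (orange) and 4 high-iron (green) arrays, with the mean and SD as a black bar. ATG41, ATG34, ATG1, LAP4, PRB1 and ATG32 were higher in low iron without overlap, ATG10 was lower without overlap, and the ATG8 values of the conditions overlapped.

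Of 10 genes for cargo receptors and other factors of selective routes, 2 rose and 1 fell (30% called, beside 39.4% of all genes). ATG34 encodes a receptor for the vacuolar mannosidase Ams1 that acts under starvation, and is a relative of ATG19, the receptor for Lap4 and Ams1 in growing cells. The genes have neighbouring locus names, YOL083W and YOL082W. ATG34 read 280.2, 305, 231 and 235 in low iron and 140.2, 152, 161 and 157 in high iron. All low-iron values were above all high-iron values, with a rise of 1.71-fold (log2 change 0.78 ± 0.101, SE; limma adjusted p = 2.15e-04). ATG19 read 667, 671, 460.0 and 499 against 530.3, 556, 575 and 559. Low-iron arrays 1 and 2 lay above and arrays 3 and 4 below every high-iron array, so that its mean change was 0.03 (adjusted p = 0.865), turning to -0.21 without low-iron arrays 1 and 2 and to 0.27 without arrays 3 and 4, both past the threshold. The difference between the changes of ATG34 and ATG19 was not tested.

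ATG32, the receptor on the outer mitochondrial membrane that marks mitochondria for mitophagy, read 428, 602, 440.3 and 432 in low iron and 311, 391, 356 and 401 in high iron. Low-iron array 2 stood apart from the other 3, which lay just above the highest high-iron value. The rise was 1.30-fold (log2 change 0.37 ± 0.122, SE; limma adjusted p = 0.0336), and its call ended without low-iron array 2 (0.26) and when array 1 (0.30) or 3 (0.36) of high iron was left out. ATG33, another outer mitochondrial membrane protein of mitophagy, read 1071, 944, 728 and 720.2 against 666, 703, 746 and 627 and missed the threshold (0.32, adjusted p = 0.0672), passing in 5 of 20 alternatives, among them leaving out low-iron array 3 (0.39) or 4 (0.40).

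ATG39, a receptor for the nuclear envelope and endoplasmic reticulum, was the selective gene that fell. Its signal was 42.9, 43.9, 65.2 and 45.6 in low iron and 59.9, 83.5, 75.2 and 74.9 in high iron, so that low-iron array 3 overlapped the lowest high-iron array. The fall was 1.49-fold (log2 change -0.57 ± 0.154, SE; limma adjusted p = 0.014), and the change came to -0.28 on the log2(signal + 64) scale. Under quantile normalization it was -0.25 and did not pass (adjusted p = 0.199), nor did it without low-iron arrays 1 and 2 together, at -0.41 (adjusted p = 0.0784). ATG40, the other receptor for the endoplasmic reticulum, read 361, 296, 190.3 and 227 in low iron and 293, 282, 311 and 239 in high iron (-0.10, adjusted p = 0.672). Its highest value and its lowest 2 values were all from low-iron cultures.

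The last 4 genes of the selective routes did not pass. ATG36, the receptor for peroxisomes, read 233, 199.9, 157 and 148 in low iron and 152, 153, 165 and 136 in high iron (log2 change 0.26, adjusted p = 0.161). Only low-iron arrays 1 and 2 lay above the high-iron values. ATG26, a sterol glucosyltransferase, read 471 to 743 in low iron and 409.7 to 562 in high iron (0.33, adjusted p = 0.108), and passed without low-iron array 3 (0.44). ATG20, a sorting nexin, read 84.8 to 163 and 130.5 to 161 (-0.25, adjusted p = 0.27), with its lowest value on low-iron array 1. ATG21, a relative of Atg18 used in the cytoplasm-to-vacuole route, read 377 to 426 and 425 to 440.5 (-0.07, adjusted p = 0.385).

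Among the 8 genes whose products act inside the vacuole 5 rose in low iron, and none fell in limma or at an unadjusted p under 0.05. Over all genes 16.8% were called higher and 22.7% lower. Among the 5, the calls of PRB1, CPS1 and PEP4 ended without low-iron arrays 1 and 2 together. ATG22, an exporter of amino acids released by breakdown, read 669, 684, 622 and 639 in low iron and 482, 503, 497 and 505 in high iron. The conditions were well apart, and the rise was 1.31-fold (log2 change 0.39 ± 0.056, SE; limma adjusted p = 3.73e-04). ATG15, the lipase that opens autophagic bodies, read 266, 294, 176 and 174 against 166, 163, 183 and 183. Its signal was raised on low-iron arrays 1 and 2 alone, and its change of 0.35 did not pass (adjusted p = 0.121). It passed in 4 alternatives, among them leaving out low-iron array 3 or 4 (0.46 in both cases).

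Of the 6 hydrolase genes 4 rose in low iron, by 1.16-fold to 1.36-fold, beside 16.8% of all genes. All 6 had a log2 change above 0, as had 2548 of the 5412 genes tested. LAP4, aminopeptidase I and the main cargo of the cytoplasm-to-vacuole route, read 3114, 2943, 2583 and 2648 in low iron and 1739, 2295, 2230.4 and 2039 in high iron. The lowest low-iron array was above the highest high-iron array, and the rise was 1.36-fold (log2 change 0.45 ± 0.0922, SE; limma adjusted p = 0.0035). PRB1, the serine protease proteinase B, read 3088, 3266, 2634 and 2743 against 2211, 2554, 2517 and 2385, also without overlap, and rose 1.21-fold (adjusted p = 0.0152). Leaving out low-iron arrays 1 and 2 brought its log2 change from 0.28 to 0.16 (adjusted p = 0.0922).

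CPS1, a vacuolar carboxypeptidase, read 4217, 4872, 4065 and 4006 in low iron and 3102, 4059, 3317 and 3432 in high iron. PEP4, the aspartyl protease that activates the other zymogens, read 4812, 4775, 4297 and 4614 in low iron and 3803, 4335, 4053 and 3783 in high iron. In both genes 1 high-iron array, number 2, reached into the low-iron values. CPS1 rose by 0.31 and PEP4 by 0.21 on the log2 scale (limma adjusted p = 0.0182 and 0.0118). The CPS1 call ended without low-iron array 2 (0.24) and when array 1 (0.25) or 3 (0.29) of high iron was left out, with adjusted p of 0.0514 to 0.0528, and both calls ended without low-iron arrays 1 and 2 together (0.22 and 0.16). Mean signals were over 4000 for PRC1 in both conditions and for PEP4 and CPS1 in low iron, near the top of the range of the arrays, where changes can be compressed.

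PRC1, carboxypeptidase Y, read 5167, 5026, 4769 and 5006 in low iron and 4560.4, 5103, 4809.6 and 4699 in high iron and did not pass (log2 change 0.06 ± 0.044, SE; adjusted p = 0.312). AMS1, the mannosidase that Atg19 and Atg34 carry, read 135, 187, 121 and 111 in low iron and 113, 141, 144 and 142 in high iron (0.01 ± 0.155, SE; adjusted p = 0.956). Its highest and its lowest value were both from low-iron cultures. YPT7, the Rab GTPase needed for autophagosomes and other vesicles to fuse with the vacuole, read 3008, 3074, 2836 and 2826 in low iron and 2911, 2796, 3007 and 2937 in high iron. The conditions overlapped throughout, with a log2 change of 0.01 ± 0.0453 (SE; adjusted p = 0.863).

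The 4 low-iron cultures differed from each other in these genes, by the median, more than over all genes. The median SD of the log2 values of the 41 genes was 0.18 among low-iron and 0.10 among high-iron arrays, against 0.12 and 0.08 over all genes tested. In 30 of the 41 genes (73.2%) the values of low-iron arrays 1 and 2 were both above those of arrays 3 and 4, an order found in 33.7% of all genes, and in 4 (9.76%) they were both below, beside 22.7% of all genes. The pair of arrays was taken from an earlier analysis of these data that had found it apart from the other low-iron arrays, so the order is a description. Relative to the mean of the high-iron arrays, the median log2 deviation of the 41 genes was 0.24 and 0.26 on low-iron arrays 1 and 2 and 0.04 and -0.02 on arrays 3 and 4. On the high-iron arrays it lay between -0.05 and 0.05. Without low-iron arrays 1 and 2 together 7 of the 41 genes were higher and 6 lower, where 14.9% and 23.9% of all genes were. Without arrays 3 and 4 together 21 were higher and 4 lower, and calls over all genes were also more frequent, at 22.9% higher and 26.4% lower. ATG40 came to -0.43 (adjusted p = 0.0138) without arrays 1 and 2, and ATG9 and ATG15 came to 0.44 and 0.68 (adjusted p = 0.00901 and 2.76e-04) without arrays 3 and 4. Whether a technical or a growth difference lies behind the pair was not tested.

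**Figure D4:**
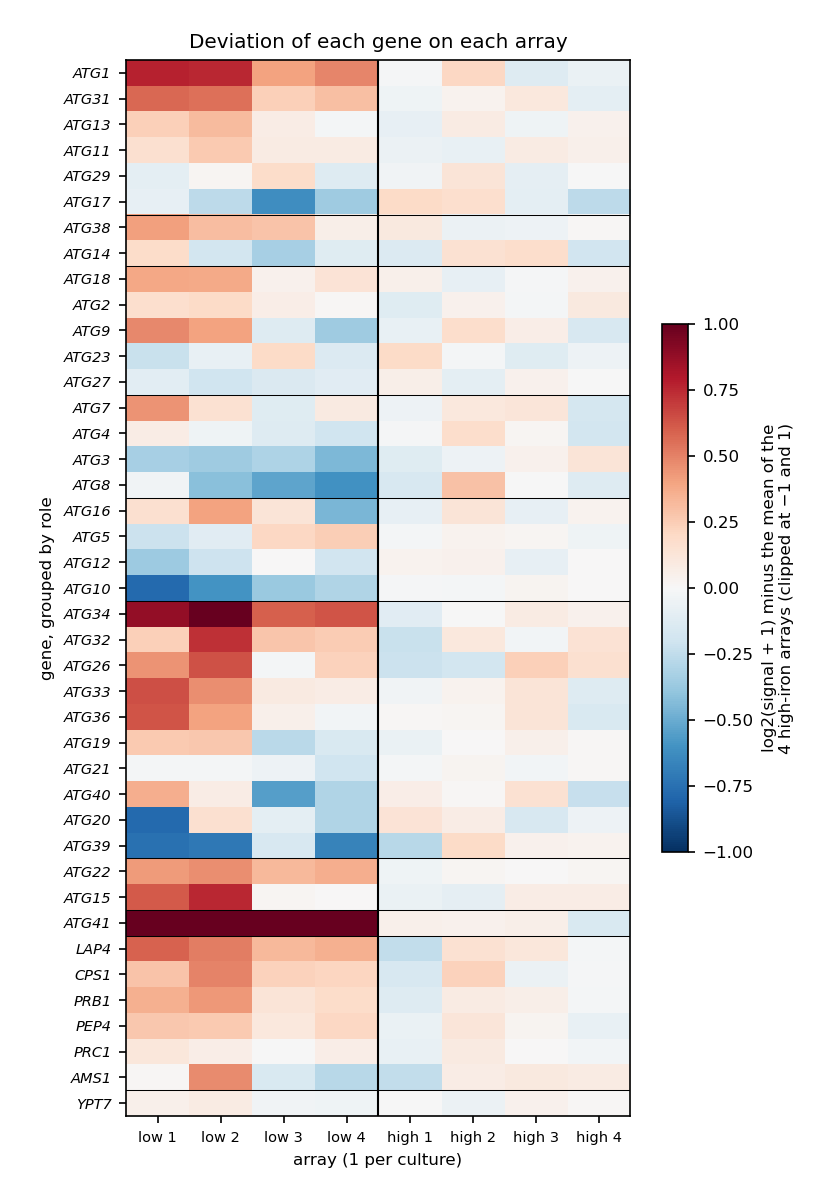
Log2(signal + 1) of each of the 41 genes on each of the 8 arrays, minus the gene's mean over the 4 high-iron arrays (colour, clipped at -1 and 1), with genes grouped by role. Low-iron arrays 1 and 2 were both above low-iron arrays 3 and 4 in 30 genes, with median deviations of 0.24 and 0.26 against 0.04 and -0.02 on low-iron arrays 3 and 4.

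Other genes of the vacuole gave no common direction. Their counts stand beside 16.8% of all genes called higher and 22.7% called lower. Of 15 genes for the tether, exchange factor and SNAREs that act with Ypt7 in vacuole fusion, 3 rose and 4 fell, with a median log2 change of -0.0048. VPS33, a subunit of the tethering complex, fell by 0.58, while VPS41, another subunit of it, rose by 0.39, and SEC18, the ATPase that recycles SNAREs, rose by 0.32 (limma adjusted p = 2.63e-04, 0.0131 and 6.35e-04). The number that fell was 2 without low-iron array 1, without array 1, 3 or 4 of high iron, and under quantile normalization or median centring. It was 3 on leaving out any other single array. Of the 3 that rose, 1 lost its call on leaving out any single array but low-iron array 4. Of 14 genes that sort proteins such as carboxypeptidase Y to the vacuole 2 rose and 1 fell, among them VPS27 at 0.25 and VPS17 at 0.32. Single arrays ended these calls. None was higher without low-iron array 2 or array 1 or 3 of high iron, 1 was higher without low-iron array 1 or array 2 or 4 of high iron, and the fall was lost on leaving out any array but low-iron array 1, and under quantile normalization or median centring. Among 7 further vacuolar hydrolases PPN1, an endopolyphosphatase, rose by 0.40 and PHO8, alkaline phosphatase, fell by 0.31 (adjusted p = 8.21e-04 and 0.00281), and 2 of the list were higher without low-iron array 3. None of the 3 genes for protease inhibitors passed in limma, with 1 at an unadjusted p under 0.05, and PBI2, an inhibitor of proteinase B, had a log2 change of -0.22 (adjusted p = 0.0586) beside the rise of PRB1. In this list 1 gene was lower without low-iron array 3 or array 1 of high iron.

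Vacuolar amino acid transporters moved both ways, 4 of 12 higher and 2 lower (1 lower without array 4 of high iron). The shares over all genes were 16.8% higher and 22.7% lower. RTC2 and VBA1, for basic amino acids, rose by 0.44 and 0.33, YPQ1 fell by 0.25, and VBA3, which has a closely similar paralogue whose RNA its probes may also bind and which was dim in high iron at 8.33 ± 1.14 against 29.3 ± 14.6 in low iron (SD, n = 4), rose by 1.60 (limma adjusted p = 0.00158, 0.00411, 0.00368 and 0.00124). Of 14 other proteins that autophagy uses none rose and 3 fell in limma, with none higher and 3 lower at an unadjusted p under 0.05. They were NVJ1 of the nucleus-vacuole junction (-0.20), WHI2 (-0.20) and SNX4 (-0.23), the partner of Atg20 that is also called ATG24. None of the 3 passed under median centring or without array 1 or 4 of high iron, and 1 did without low-iron array 2 or 4 or array 3 of high iron. Leaving out any other single array left 2 of them. In the same list 1 gene was higher without low-iron array 3 and under quantile normalization.

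Genes for the control of autophagy changed in both directions. Of 20 nutrient-sensing kinases and partners 3 rose and 5 fell (40% beside 39.4% of all genes), or 3 and 3 without array 4 of high iron. PHO85, a cyclin-dependent kinase of nutrient signalling, rose by 0.86 from 722 ± 30.0 to 1324 ± 256 (SD, n = 4), and TCO89, a subunit of target of rapamycin complex 1, rose by 0.40 (limma adjusted p = 3.16e-04 and 0.00114). The target of rapamycin kinase genes TOR1 and TOR2 went opposite ways, at -0.36 and 0.38 (limma adjusted p = 0.0096 and 0.0074). TPK3, a catalytic subunit of protein kinase A, fell by 0.38 and TAP42, a phosphatase partner in target of rapamycin signalling, by 0.31 (adjusted p = 9.32e-04 and 0.00244). Of 17 transcription factors reported to act on ATG genes 4 rose and 4 fell (47.1% beside 39.4% of all genes). Only 1 rose without array 3 of high iron, and 2 rose without low-iron array 2 or array 1 or 4 of high iron. The stress factor gene MSN4 fell by 0.63 from 689 ± 46.5 to 452 ± 91.6, GIS1 fell by 0.34 and HAP2 by 0.31, and SIN3, a subunit of the histone deacetylase complex that represses ATG8, rose by 0.26 (adjusted p = 0.00417, 0.00456, 0.00759 and 0.00745).

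Stress genes and genes for the use of poor nitrogen sources, which like autophagy respond to nutrient shortage, mostly fell where they changed. Of 16 general stress genes 8 fell, 1 rose and 7 did not pass, where 22.7% of all genes fell and 16.8% rose. Log2 changes in the list ran from -2.61 to 0.36. HSP12, a small heat shock protein of membranes, read 423 ± 92.0 in low against 2571 ± 381 in high iron. CTT1, cytosolic catalase, read 32.0 ± 4.26 against 125 ± 4.20 (SD, n = 4; limma adjusted p = 8.38e-07 and 6.10e-07 for HSP12 and CTT1). The number of the 16 that rose was 0 without low-iron array 2 or array 1 or 2 of high iron. It was 3 without array 3 of high iron or under median centring, and 2 under quantile normalization. Of 19 genes repressed by good nitrogen sources 9 fell, beside 22.7% of all genes, none rose and 10 did not pass. At an unadjusted p under 0.05 none was higher and 9 were lower. DAL3, DAL7 and DAL2, all of allantoin use, had log2 changes of -0.84, -0.83 and -0.82. Their locus names on chromosome IX, YIR032C, YIR031C and YIR029W, lie close together, as do those of other DAL genes that fell. The 9 genes that fell are thus not all from separate places in the genome. Without array 2 of high iron 1 gene of this list was higher. The number that fell was 12 without low-iron array 1 and 8 on leaving out any other single array. Without low-iron arrays 1 and 2 together none was higher and 13 were lower, and without low-iron arrays 3 and 4 together 3 were higher and 7 lower.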

How the data were processed

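The authors deposited linear intensities, 1 per probe set and array, made with MAS5, per the submitters' processing notes. The sources used here name neither its background method nor its scaling target. Probe sets were named through the platform annotation and RefSeq genes (assembly R64), with the brightest probe set per gene (all members had 1). A gene entered the test if its average over the 8 arrays was above 5.48, the 95th percentile of 1746 probe sets with fission yeast identifiers, which left 5412 of 5449. Low and high iron, grouped by the labels, were compared on log2(signal + 1) with limma 3.58.1 in R 4.3.3 (eBayes, trend by intensity; two-sided), with Benjamini-Hochberg adjustment over the 5412 genes. Folds are on that scale and understate changes of dim genes. Precision is limited by having 4 arrays in each condition. The procedure was tested on simulated data. Figures used matplotlib 3.10.9 in Python 3.11.15.

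The members and the lists of related genes were chosen with earlier results of these data known, and 4 entries that did not belong in their list by function or name, none of them past the threshold, were removed after the values were seen. All members may be named. Of each related list the genes named are among the 4 with the lowest adjusted p, and of the 9 iron regulon genes used as a check any may be named. TOR1 and TOR2, which rank lower in their list, are named beside TCO89. Alternatives were quantile normalization, median centring, pseudocounts of 16 and 64, no filter, a filter at the 99th percentile, values raised to background, no trend, array weights, the mean of probe sets, leaving out each array, and leaving out low-iron arrays 1 and 2 or 3 and 4 together. No sequence or coordinate was used here.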

Additional observations from a re-analysis of the deposited data

Results flagged for a closer look

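In 4 of the 82 sets of 4 arrays (41 genes in 2 conditions), 1 array lay far from the other 3 by Dixon's test, and chance gives about 1 in 20. AMS1 read 113 on high-iron array 1 against 141 to 144 on the others. ATG41 read 1088 on high-iron array 4 against 1249 to 1258, still far below its low-iron values. ATG32 read 602 on low-iron array 2 against 428 to 440.3, and ATG39 read 65.2 on low-iron array 3 against 42.9 to 45.6. The 4 values came from 4 different arrays.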

How the results depend on the processing

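Of the 15 called genes, 8 stayed called in the same direction in all 20 alternatives: ATG41, ATG34, ATG1, LAP4, ATG31 and ATG22 higher and ATG10 and ATG3 lower. The other 7 lost their call in at least 1. Of the 26 genes not called, 10 were called in no alternative. The 11 genes called higher became 18 under quantile normalization (with ATG11, ATG13, ATG15, ATG18, ATG29, ATG33 and ATG36 added), 7 without low-iron arrays 1 and 2 together and 21 without low-iron arrays 3 and 4 together, while the 907 called higher over all genes became 1182, 805 and 1238. Leaving out 1 array at a time gave 8 to 14 higher and 3 to 5 lower among the 41 genes, and 1717 to 2306 genes called in all. The other settings left these counts within 1.5 times. ATG29 turned from -0.0044 to 0.34 under quantile normalization and ATG19 from 0.03 to -0.21 without low-iron arrays 1 and 2, both past the threshold there, and the cause was not tested. No paired analysis was possible because the labels give no replicate numbers shared between the conditions. ATG16, the dimmest gene, lay close to background, which limits its value.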
